A study of Mus musculus with 12 samples.

Results

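The genes that carry glucose into the muscle cell, break it down to pyruvate and lactate, and store it as glycogen were followed in C2C12 myotubes given STEM in place of horse serum. The set holds 36 genes named by symbol, and it was matched to the count table through the Ensembl identifiers of a GENCODE annotation of mouse genome build GRCm38. All 36 were found among the 55487 rows of the table, in 37 rows, because the symbol Aldoa stands on 2 identifiers. C2C12 cells are mouse myoblasts of an established line, which join into multinucleated myotubes once serum is lowered. STEM is a solution of the factors that human embryonic stem cells release during partial differentiation, free of the cells themselves. All cultures were differentiated for 5 days in DMEM with 2% horse serum and penicillin/streptomycin. The control group (6 libraries, numbered 1 to 6) was then kept for 24 h in DMEM with 4% horse serum, and the STEM group (6 libraries, numbered 7 to 12) for 24 h in DMEM with 4% STEM. STEM took the place of the serum, so the addition of STEM and the removal of horse serum cannot be told apart. The model is 1 cell line in culture, with no blood supply, nerve or other muscle cell types. The labels do not say whether the libraries of a group came from separate cultures, and the p-values measure only the spread between these libraries, which may be technical.

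Glucose enters muscle through facilitative transporters and is trapped as glucose-6-phosphate by hexokinase. That intermediate either runs through glycolysis to pyruvate, which becomes lactate in the cytosol or acetyl-CoA in the mitochondria, or is built into glycogen, the glucose store that muscle draws on during contraction. Many steps have several isoenzymes encoded by separate genes, and adult skeletal muscle is known for its own set, such as Slc2a4, Pfkm, Pgam2, Eno3 and Pygm.

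Total RNA depleted of ribosomal RNA was sequenced, and the reads per gene summed to between 13285472 and 18254882 in the horse serum libraries and to between 14909485 and 24536264 in the STEM libraries. The myotube label was checked with 24 markers, all of which were detected. Their summed level was 34575 to 36654 CPM (the counts of a gene scaled to the TMM-normalized total of its library) in horse serum libraries 1 to 5 and 26809 to 34096 CPM in the STEM libraries. Horse serum library 6 stood apart at 16401 CPM, and its 10 dividing-cell markers summed to 1322 CPM against 771 to 1160 CPM in libraries 1 to 5 and 576 to 714 CPM with STEM. The 8 macrophage markers summed to at most 5.99 CPM in any library, with 2 of them at 0 throughout. The 8 genes listed as markers of unfused myoblasts summed to 3580 to 4019 CPM in horse serum and 3694 to 3926 CPM with STEM. Des and Itga7, at means of 1819 and 1104 CPM in horse serum, made most of that sum, so it mainly reflects them. Single genes of the list went both ways. Mean Cdh15 was 349 CPM in horse serum and 480 CPM with STEM, mean Itga7 1104 and 922 CPM, and mean Myf5 18.1 and 13.5 CPM. Adipocyte, endothelial and liver or pancreas markers summed to at most 15.5, 3.32 and 0.41 CPM, with 3, 2 and 4 of 6 at 0 throughout. Pparg made nearly all of the adipocyte sum, at means of 12.3 CPM in horse serum and 6.86 CPM with STEM, without overlap of the groups. Every comparison below was therefore made with all 12 libraries and again without library 6. In bulk RNA, fewer myotubes in a well and less RNA of a gene per myotube cannot be told apart. At the STEM level used here, the paper reported a higher share of nuclei in myotubes and a larger myotube area than in horse serum. That imaging was done on cultures other than the sequenced ones, for which the paper gives no such measure.

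With all 12 libraries, few genes of glucose breakdown and storage differed between the groups. Of the 36 genes, 6 (16.7%) were called, that is, had an adjusted p-value no higher than 0.05, against 36.4% of the 14175 genes tested (edgeR quasi-likelihood test, Benjamini-Hochberg adjustment over all genes tested). Phka1, a regulatory subunit of the kinase that activates glycogen phosphorylase, was higher with STEM, as were 18.9% of all genes. The other 5, Slc2a3, Aldoc, Ldhb, Pygl and Pygb, were lower, as were 17.4% of all genes. The median log2 fold change of the 36 genes was -0.08 and that of all genes 0.01. The STEM and horse serum libraries were separate for Phka1, which was higher (8.68% of all genes), and for Slc2a3, which was lower (8.52%), together 5.6% of the 36 against 17.2% of all genes.

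Without library 6 the count moved to 25 of 36 genes (69.4%), against 50.8% of 14267 genes tested. With STEM, 22 of the 36 (61.1%) were lower, against 24.5% of all genes, and 3 (8.3%) were higher, against 26.3%. The median log2 fold change became -0.24, while that of all genes stayed at 0.01. The groups did not overlap for 15 of the 36 genes (41.7%), 14 of them lower and 1 higher with STEM, against 33.3% of all genes (16.5% lower and 16.8% higher). The 6 genes called with 12 libraries were called in the same direction without library 6. Another 17 were called lower and 2 (Pfkfb4 and Gys1) higher only without it, and 11 were called in neither comparison.

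**Figure D1:**
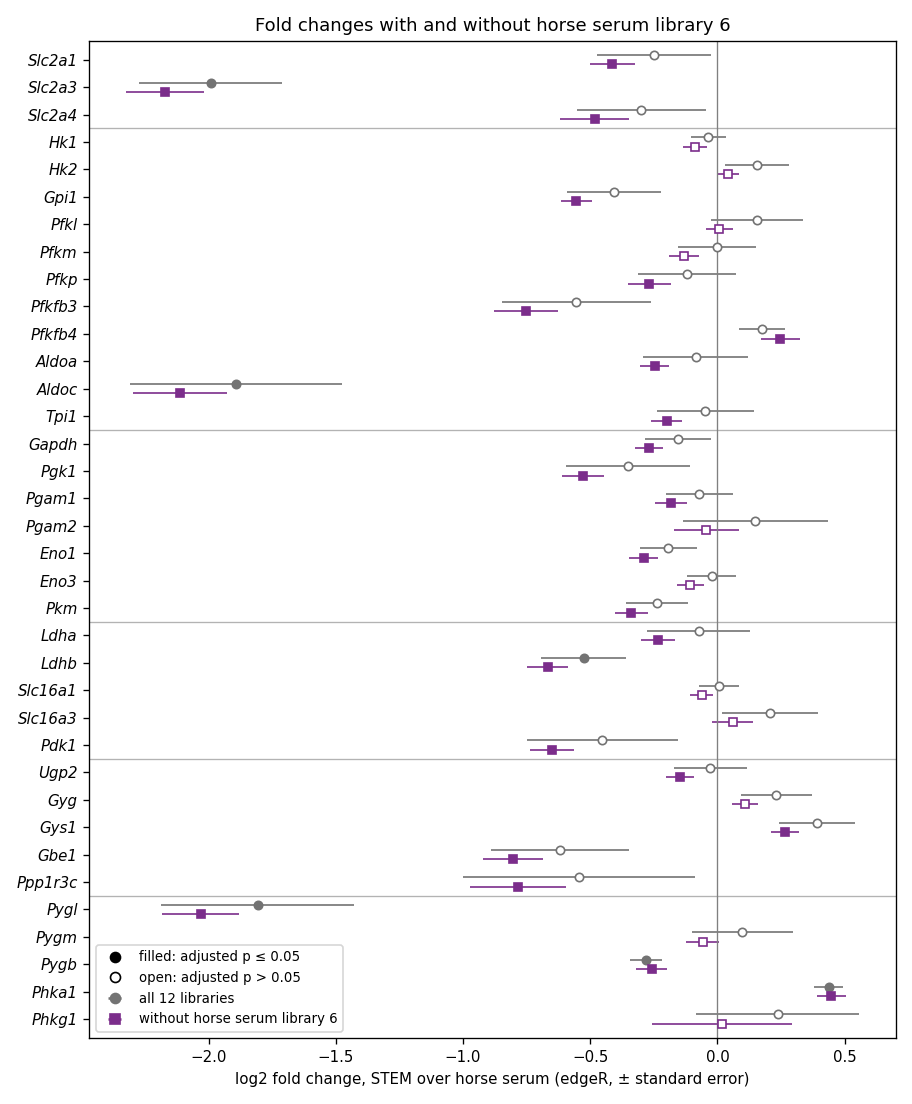
Log2 fold change (STEM over horse serum, edgeR) of each of the 36 genes with its standard error, from all 12 libraries (grey circles) and without horse serum library 6 (purple squares), filled where the adjusted p-value was no higher than 0.05. Slc2a3, Aldoc and Pygl lie near -2 in both fits, while the other genes lie closer to 0 and most of them shift to the left without library 6.

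Transcripts of a muscle-type and a general set of glycolytic enzymes were found side by side in the cultures. Bulk RNA does not show which of them came from myotubes and which from unfused cells. Per length of transcript (TPM, from the union of each gene's exons), Aldoa was the most abundant of the 36 genes in horse serum libraries 1 to 5, at 2368 ± 68.0 TPM (SD, n = 5). Pkm followed at 2176 ± 140 TPM, Pgk1 at 2069 ± 111 TPM, Eno3 at 1587 ± 73.2 TPM, Tpi1 at 1455 ± 52.1 TPM and Ldha at 1059 ± 50.7 TPM. Pkm was above Pgk1 in each of these 5 libraries, although the ranges of Aldoa and Pkm, of Pkm and Pgk1, and of Eno3 and Tpi1 overlapped. The order rests on exon unions, and no ranking was made with other lengths. Union and longest transcript were 5379 and 2027 bases for Eno1, 5001 and 2432 for Pkm, and 1739 and 1564 for Eno3. Of the summed TPM of Eno1 and Eno3, Eno3 made 71.1% in these libraries with exon unions and 50.8% with longest transcripts. The transporters and the regulators were far lower. Slc2a1 reached 82.2 ± 7.02 TPM, Slc2a4 5.64 ± 0.54 TPM and Slc2a3 5.12 ± 0.63 TPM. Pygl stood at 2.78 ± 0.23 TPM and Phkg1 lowest of all at 0.24 ± 0.071 TPM, a level that rested on 137 reads over the 12 libraries.

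**Figure D2:**
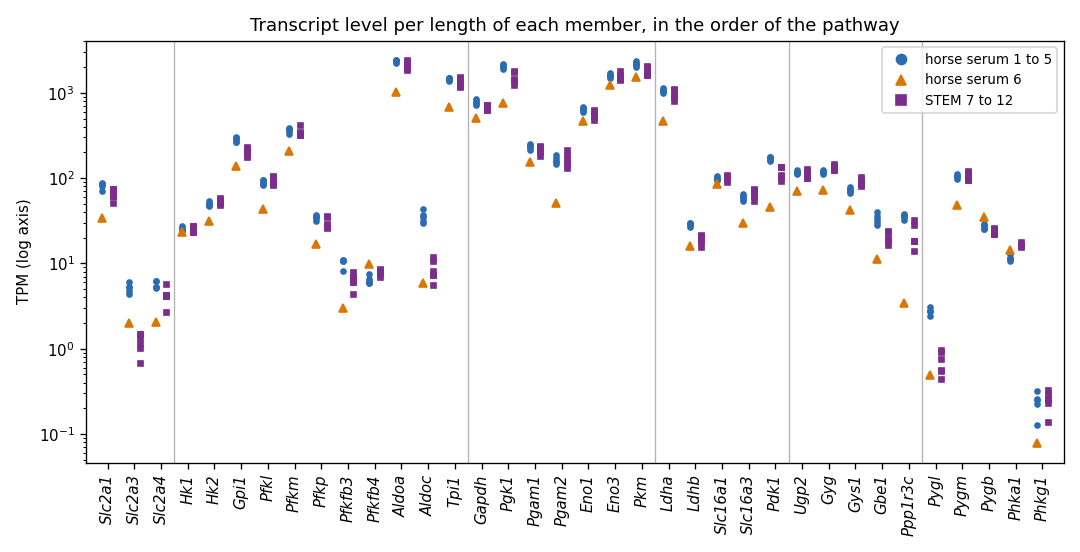
Transcript level per length (TPM, log axis) of the 36 genes in each of the 12 libraries, ordered by step from glucose entry to glycogen breakdown, with gray lines between the steps. Aldoa, Pkm, Pgk1, Eno3, Tpi1, Ldha, Gapdh and Eno1 take the highest positions. Slc2a3, Slc2a4 and Pygl are below 10 TPM, and horse serum library 6 (triangle) lies under the other libraries for most genes.

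Summed over the pathway, the transcripts of the 36 genes came to 14401 ± 460 TPM in horse serum libraries 1 to 5, to 7866 TPM in library 6 and to 12509 ± 1250 TPM with STEM (SD, n = 6). STEM libraries 7 and 8 had the highest sums of their group (14316 and 13800 TPM) and library 10 the lowest (11165 TPM), so STEM overlapped libraries 1 to 5. The 7 genes of lower glycolysis made 7652 ± 265 TPM of it in libraries 1 to 5 and 6473 ± 650 TPM with STEM. The 5 genes of glycogen synthesis summed to 377 ± 15.0 and 378 ± 25.9 TPM, and the 5 of glycogen breakdown to 148 ± 5.46 and 148 ± 10.7 TPM, in the same order. Sums for glycogen thus differed by less than the spread between libraries.

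Of the glucose transporters, Slc2a3 was far lower with STEM. Slc2a3 encodes the high-affinity transporter GLUT3, best known from neurons, and its gene (ENSMUSG00000003153) lies at chr6:122727809-122801640 on the minus strand. Its level was 15.4 to 21.8 CPM in horse serum libraries 1 to 5 (median 18.0), 5.88 CPM in library 6, and 2.25 to 5.06 CPM with STEM (median 4.08). Every STEM library was below every horse serum library, although library 6 lay close to the STEM range. With a log2 fold change of -1.99 ± 0.28 (standard error), or 0.251 of the horse serum level, the difference had an adjusted p of 0.000146, and it was -2.17 ± 0.15 (adjusted p = 2.1e-08) without library 6. The values rest on 35 to 90 reads per STEM library.

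Slc2a1 encodes GLUT1, the transporter of basal glucose uptake and by transcript level the main one here. It ranged from 121 to 147 CPM (median 143) in horse serum libraries 1 to 5, was 49.0 CPM in library 6 and 81.9 to 120 CPM with STEM (median 102). STEM libraries thus sat below libraries 1 to 5 and above library 6. The log2 fold change was -0.25 (adjusted p = 0.418) and became -0.41 ± 0.087 (standard error, adjusted p = 0.00174) without library 6. Slc2a4, the insulin-responsive transporter GLUT4 of muscle and fat, ranged from 8.38 to 10.6 CPM in libraries 1 to 5, stood at 2.87 CPM in library 6, and ranged from 4.22 to 8.83 CPM with STEM. Its log2 fold change was -0.30 (adjusted p = 0.386) and -0.48 (adjusted p = 0.00608) without library 6, and the groups overlapped either way.

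In upper glycolysis, Aldoc was the gene that differed most. Aldoc encodes aldolase C, the aldolase of brain, and lies at chr11:78322968-78327781 on the plus strand (ENSMUSG00000017390). It ranged from 47.7 to 71.2 CPM in horse serum libraries 1 to 5 (median 53.5), was 7.83 CPM in library 6, and ranged from 8.44 to 18.0 CPM with STEM (median 11.8). All STEM libraries were below libraries 1 to 5, but library 6 was lower than any of them. The difference was -1.89 ± 0.42 on the log2 scale (standard error, adjusted p = 0.00461) and -2.11 ± 0.18 (adjusted p = 5.87e-06) without library 6. Aldoa, the muscle aldolase, ranged from 3075 to 3492 CPM in libraries 1 to 5 and from 2513 to 3090 CPM with STEM, with 1195 CPM in library 6. Its log2 fold change was -0.08 (adjusted p = 0.774) with 12 libraries and -0.25 (adjusted p = 0.00131) without library 6.

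The first steps of glycolysis were not called with 12 libraries. Hexokinases Hk1 and Hk2, which phosphorylate glucose, had log2 fold changes of -0.04 and 0.16 and were not called without library 6 either, and the same held for Pfkl and Pfkm, the liver-type and muscle-type subunits of phosphofructokinase. Gpi1, which turns glucose-6-phosphate into fructose-6-phosphate, ranged from 797 to 964 CPM in horse serum libraries 1 to 5, was 361 CPM in library 6 and ranged from 531 to 661 CPM with STEM. The STEM libraries filled the space between libraries 1 to 5 and library 6, and the log2 fold change was -0.41 (adjusted p = 0.107) and -0.55 (adjusted p = 8.44e-07) without library 6. With DESeq2 in place of edgeR, Gpi1 was called lower with all 12 libraries as well. Pfkp, the platelet-type subunit, and Tpi1, which interconverts the triose phosphates, had log2 fold changes of -0.27 (adjusted p = 0.0203) and -0.20 (adjusted p = 0.0113) without library 6, with overlapping groups.

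The enzymes that set the level of fructose-2,6-bisphosphate, an activator of phosphofructokinase, moved in opposite directions without library 6. Pfkfb3, whose product mainly makes the activator, ranged from 30.2 to 40.9 CPM in horse serum libraries 1 to 5, was 9.26 CPM in library 6, and ranged from 15.1 to 27.3 CPM with STEM. Pfkfb4 ranged from 13.4 to 17.4 CPM in libraries 1 to 5, was 19.4 CPM in library 6, and ranged from 15.6 to 19.6 CPM with STEM. Library 6 was thus the lowest library for Pfkfb3 and the highest horse serum library for Pfkfb4. The log2 fold change of Pfkfb3 was -0.55 (adjusted p = 0.162), and -0.75 (adjusted p = 0.000315) without library 6. That of Pfkfb4 was 0.17 (adjusted p = 0.147), and 0.25 (adjusted p = 0.011) without library 6.

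In lower glycolysis, 0 of 7 genes were called with 12 libraries, against 36.4% of all genes, and 5 were called lower without library 6, against 24.5%. With 12 libraries, 0 of the 7 had an unadjusted p-value under 0.05, and none was called by DESeq2 or limma-voom. Pgk1, the first ATP-yielding enzyme, showed the largest difference. It ranged from 2102 to 2465 CPM in horse serum libraries 1 to 5, was 697 CPM in library 6, and ranged from 1292 to 1861 CPM with STEM, for a log2 fold change of -0.35 with 12 libraries and -0.53 (adjusted p = 0.000121) without library 6. Pkm, the muscle pyruvate kinase and the gene with the highest CPM of the 36, ranged from 4872 to 5871 CPM in libraries 1 to 5, was 3106 CPM in library 6, and ranged from 3719 to 4613 CPM with STEM (log2 fold change -0.34 without library 6, adjusted p = 0.000295). For Pgk1, Pkm, Gapdh and Eno1 every STEM library was below each of libraries 1 to 5.

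Gapdh, often used as a reference gene, ranged from 1442 to 1761 CPM in libraries 1 to 5, was 841 CPM in library 6 and ranged from 1203 to 1395 CPM with STEM. Its log2 fold change was -0.16 with 12 libraries and -0.27 (adjusted p = 0.00044) without library 6. Eno1, the general enolase, had a log2 fold change of -0.29 (adjusted p = 0.000349) without library 6, and Pgam1, the general phosphoglycerate mutase, -0.18 (adjusted p = 0.023). Their muscle counterparts were called in neither comparison. Eno3 ranged from 1288 to 1438 CPM in libraries 1 to 5 and from 1139 to 1388 CPM with STEM, and Pgam2 from 57.8 to 76.4 CPM and from 51.2 to 80.1 CPM. The difference in response between a general and a muscle isoenzyme was not tested in either pair.

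At the end of glycolysis, Ldhb was lower with STEM. Ldhb encodes the heart-type subunit of lactate dehydrogenase, which favors the use of lactate, and lies at chr6:142490249-142507957 on the minus strand (ENSMUSG00000030246). It ranged from 19.9 to 23.5 CPM in horse serum libraries 1 to 5 (median 21.8), was 10.1 CPM in library 6, and ranged from 11 to 16.1 CPM with STEM (median 13.8). STEM libraries lay below libraries 1 to 5, and library 6 lay below them all. On the log2 scale the difference was -0.53 ± 0.17 (standard error, adjusted p = 0.0258) and -0.67 ± 0.081 (adjusted p = 1.65e-06) without library 6. With 12 libraries this call was at the edge of the threshold. The adjusted p-value became 0.0599, 0.0534 or 0.0561 without horse serum library 1, 2 or 4, 0.0578 without STEM library 11, 0.0868 with no filter on low counts, and 0.0772 with limma-voom.

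Ldha, the muscle-type subunit and by far the more abundant, ranged from 1602 to 1862 CPM in libraries 1 to 5, was 636 CPM in library 6 and ranged from 1240 to 1633 CPM with STEM. Its log2 fold change was -0.07 and not called with 12 libraries, and -0.23 (adjusted p = 0.00742) without library 6. The lactate carriers Slc16a1 (MCT1) and Slc16a3 (MCT4) were called in neither comparison. Slc16a1 ranged from 195 to 234 CPM in libraries 1 to 5 and from 188 to 211 CPM with STEM, and Slc16a3 from 135 to 174 CPM and from 131 to 183 CPM. Pdk1, which switches off pyruvate dehydrogenase, ranged from 590 to 681 CPM in libraries 1 to 5, was 146 CPM in library 6 and ranged from 334 to 481 CPM with STEM. Here again STEM lay between library 6 and the rest, and the log2 fold change was -0.45 (adjusted p = 0.263) and -0.65 (adjusted p = 3.5e-05) without library 6.

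In glycogen synthesis, 0 of 5 genes were called with 12 libraries by edgeR (2 had an unadjusted p-value under 0.05), and without library 6 there was 1 higher gene and 3 lower ones, against 26.3% and 24.5% of all genes. Gys1, the muscle glycogen synthase that lengthens the glucose chain, ranged from 153 to 180 CPM in horse serum libraries 1 to 5 (median 165), was 83.2 CPM in library 6, and ranged from 179 to 220 CPM with STEM (median 204). The STEM range began at the top of the horse serum range. Its difference was 0.39 ± 0.15 on the log2 scale (standard error, adjusted p = 0.0559), just past the threshold, and 0.27 (adjusted p = 0.000436) without library 6. With 12 libraries it was called with total counts as the only scaling, with DESeq2, with limma-voom, without robust estimation, and without horse serum library 2 (adjusted p = 0.0486).

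The enzyme that branches the glycogen chain and a scaffold that brings a phosphatase to glycogen had lower levels with STEM than in horse serum libraries 1 to 5. Gbe1, the branching enzyme, ranged from 74.4 to 106 CPM in libraries 1 to 5, was 24.6 CPM in library 6, and ranged from 40.2 to 58.2 CPM with STEM. Ppp1r3c, the scaffold, ranged from 44.1 to 50.3 CPM in libraries 1 to 5, was 3.79 CPM in library 6, and ranged from 17.2 to 38.7 CPM with STEM. Library 6 had 0.0812 of the mean of libraries 1 to 5 for Ppp1r3c, the lowest such ratio of the 36 genes. The log2 fold change of Gbe1 was -0.62 (adjusted p = 0.0967) and -0.80 (adjusted p = 0.000164) without library 6, and that of Ppp1r3c was -0.54 (adjusted p = 0.382) and -0.78 (adjusted p = 0.0061). Ugp2, which makes the glucose donor for glycogen, had a log2 fold change of -0.15 (adjusted p = 0.0301) without library 6. Gyg, which primes the chain, ranged from 123 to 143 CPM in libraries 1 to 5 and from 132 to 159 CPM with STEM and was called in neither comparison.

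In glycogen breakdown, the liver and brain forms of glycogen phosphorylase were lower with STEM, while the muscle form was not called. Pygl, the liver form, lies at chr12:70190811-70231488 on the minus strand (ENSMUSG00000021069). It ranged from 8.22 to 10.6 CPM in horse serum libraries 1 to 5 (median 9.09), was 1.38 CPM in library 6 and ranged from 1.42 to 2.93 CPM with STEM (median 2.12). Every STEM library was below libraries 1 to 5, and library 6 was just below the lowest STEM library. This made a difference of -1.81 ± 0.38 on the log2 scale (standard error, adjusted p = 0.00254), and of -2.03 ± 0.15 (adjusted p = 3.25e-09) without library 6. These levels rest on 22 to 72 reads per STEM library.

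Pygb, the brain form, differed in that library 6 was among its horse serum libraries. It lies at chr2:150786735-150831758 on the plus strand (ENSMUSG00000033059) and ranged from 57.3 to 68.9 CPM in horse serum (library 6 at 68.2 CPM) and from 48.4 to 57.6 CPM with STEM. The ranges overlapped at the edge, with a difference of -0.28 ± 0.062 on the log2 scale (standard error, adjusted p = 0.00275) and -0.26 (adjusted p = 0.00119) without library 6. Pygm, the phosphorylase of adult muscle, ranged from 158 to 177 CPM in libraries 1 to 5, was 63.8 CPM in library 6 and ranged from 141 to 180 CPM with STEM.

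Phka1 was the gene that rose with STEM in both comparisons. It encodes the muscle form of the alpha subunit of phosphorylase kinase and lies at chrX:102513975-102644246 on the minus strand (ENSMUSG00000034055). It ranged from 31.1 to 39.7 CPM in horse serum (median 34.8, library 6 at 36.2 CPM) and from 44.7 to 49.4 CPM with STEM (median 47.9). Every STEM library was above every horse serum library, and library 6 lay within its group. The mean rose from 35.0 ± 2.89 to 47.4 ± 1.74 CPM (SD, n = 6). On the log2 scale this was 0.44 ± 0.057 (standard error, adjusted p = 4.27e-05), and 0.45 (adjusted p = 2.72e-06) without library 6. Phkg1, the catalytic subunit of the same kinase in muscle, ranged from 0.20 to 1.03 CPM over all libraries and was not called.

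**Figure D3:**
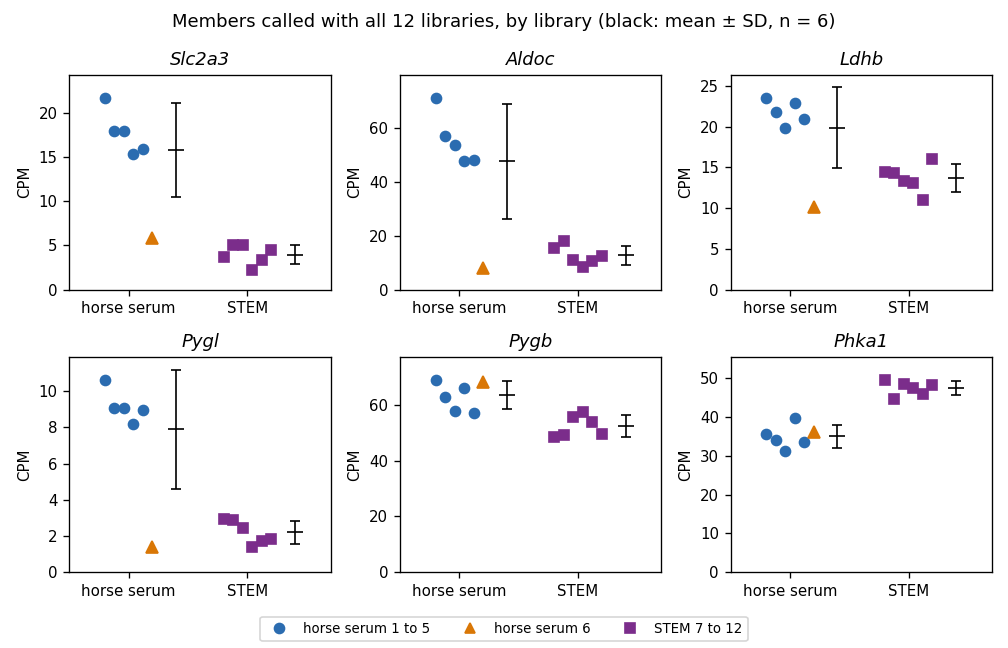
Level in CPM (linear axis from 0) of the 6 genes called with all 12 libraries, for each horse serum library (circles, library 6 as a triangle) and STEM library (squares), with the mean and SD of each group of 6 in black. Library 6 lies near or below the STEM libraries for Slc2a3, Aldoc, Ldhb and Pygl and within the horse serum libraries for Pygb and Phka1.

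Aldoc and Pygl were, with Slc2a3, the genes whose level moved by more than a log2 fold change of 1 in both comparisons, against 2.69% of all genes tested with 12 libraries and 3.55% without library 6. The stretches before the starts of Pygl and Aldoc are shown because they met this size in both comparisons and had a RefSeq start, which was not matched for Slc2a3. The sequences are from RefSeq (GRCm38.p6), each on its gene's own strand and outside annotated exons of the gene. That of Pygl is chr12:70227684-70227933, which ends at a RefSeq start inside the longer GENCODE gene, and that of Aldoc is chr11:78322823-78322967, which ends where the gene begins. Aldoc has a second RefSeq start further downstream. The stretch outside exons before that start is not printed and holds 0 of the marked places. Capitals mark the letters ACGTG or GCGTG, the core of the elements that bind hypoxia-inducible factors, on either strand.
Pygl: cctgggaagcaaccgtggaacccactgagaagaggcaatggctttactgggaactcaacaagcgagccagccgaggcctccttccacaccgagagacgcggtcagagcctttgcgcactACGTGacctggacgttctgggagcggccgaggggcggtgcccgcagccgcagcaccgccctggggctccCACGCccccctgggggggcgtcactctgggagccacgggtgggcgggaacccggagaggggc
Aldoc: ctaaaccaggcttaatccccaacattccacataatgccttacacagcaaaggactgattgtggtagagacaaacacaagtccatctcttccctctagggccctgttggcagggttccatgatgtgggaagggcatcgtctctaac
The printed Pygl stretch holds 2 places and the Aldoc stretch 0. GCGTG does occur in the remaining, exonic bases before the RefSeq start of Aldoc, which are not shown.

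Over the set as a whole, 34 of the 36 genes (not Slc2a3 and Slc2a4) were matched to RefSeq starts, 48 in all, and the 250 bases before each start were searched on both strands. ACGTG was found before 39.6% of these starts, against 16.6% of all 32851 mouse starts and 21.5% of the 12715 starts of tested genes. GCGTG was found before 56.2%, against 28.2% and 44.2%. The E-box CACGTG, which overlaps ACGTG, was found before 10.4%, against 6.0% and 8.3%, and the muscle E-box CAGCTG before 18.8%, against 13.0% and 12.5%. TATAAA was found before 0.0% of the starts, against 12.4% and 6.6%, and the GC box GGGCGG before 52.1%, against 32.7% and 57.1%. Of the 20 matched genes that were lower without library 6, 17 had ACGTG or GCGTG, and so did 11 of the other 14. Starts of 1 gene share sequence, and a match is a description of letters only.

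The mix of isoenzymes was described as the share of each in the summed TPM of its family. Slc2a3 made 5.46 ± 0.52% of the transcripts of the 3 transporters in horse serum and 1.69 ± 0.39% with STEM (SD, n = 6). The horse serum libraries ranged from 5.00 to 6.48%, with library 6 at 5.21%, and the STEM libraries from 1.22 to 2.22%, with no overlap. Library 6 was thus within its group for the share of Slc2a3 although its level was low.

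Ldhb made 2.76 ± 0.28% of lactate dehydrogenase transcripts in horse serum and 1.99 ± 0.26% with STEM, and the ranges of 2.46 to 3.24% and 1.71 to 2.39% did not overlap. Aldoc made 1.32 ± 0.40% of aldolase transcripts in horse serum and 0.399 ± 0.076% with STEM, with library 6 at 0.581% just above the highest STEM library at 0.521%. Pygl made 1.80 ± 0.63% of phosphorylase transcripts in horse serum and 0.528 ± 0.14% with STEM, and the groups overlapped through library 6 at 0.586%. In all 4 families the isoform with the lower share was one of little abundance in these cells.

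Pfkfb4 made 38.7 ± 2.57% of the transcripts of its pair in horse serum libraries 1 to 5, 76.5% in library 6 and 56.0 ± 5.77% with STEM. The shares of hexokinases, phosphofructokinase subunits, phosphoglycerate mutases, enolases and lactate carriers overlapped between the groups with and without library 6. The share of Pygm ranged from 75.6 to 79.0% in libraries 1 to 5 and from 78.2 to 84.0% with STEM, which overlapped, but it did not overlap when lengths were taken from the longest transcript of each gene (72.4 to 76.0% and 76.3 to 82.4%).

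**Figure D4:**
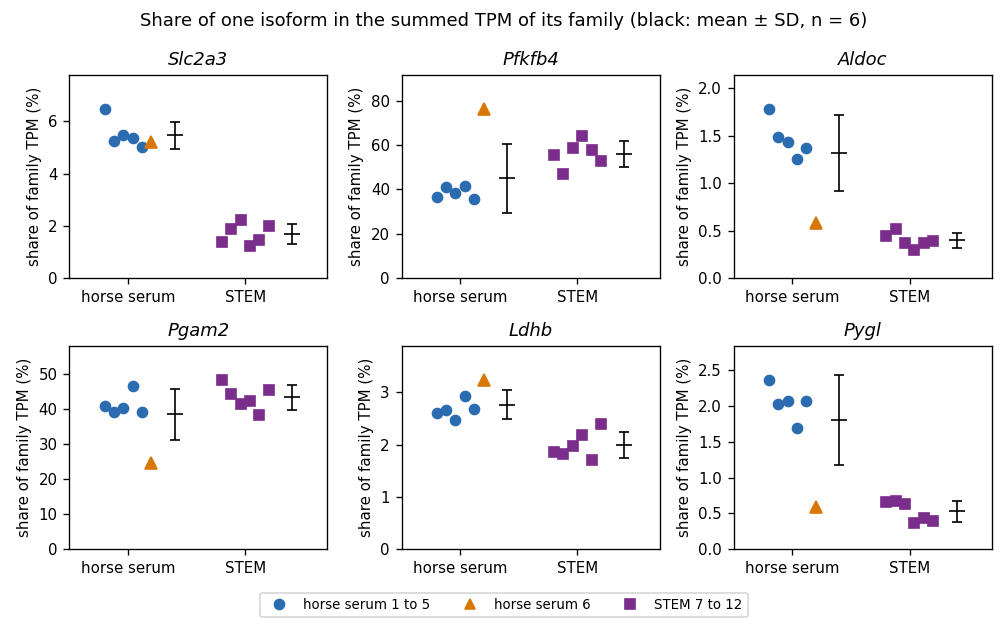
Share (%) of one isoform in the summed TPM of its family in each library, with mean and SD of each group of 6 in black, for Slc2a3 among the 3 glucose transporters, Pfkfb4 of the pair Pfkfb3 and Pfkfb4, Aldoc of the aldolases, Pgam2 of the phosphoglycerate mutases, Ldhb of the lactate dehydrogenases and Pygl of the glycogen phosphorylases. The groups are separate for Slc2a3, Aldoc and Ldhb, and library 6 (triangle) lies far from its group for Pfkfb4, Pgam2 and Pygl.

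Most genes of glucose breakdown and storage were low in horse serum library 6. It was the lowest horse serum library for 33 of the 36 genes, within the group for Pygb and Phka1, and the highest for Pfkfb4. It was below every STEM library for 33 genes. Library 6 also stood apart over genes at large. The chi-square per degree of freedom between pairs of horse serum libraries was 62.8 to 76.6 with library 6 and 3.73 to 10.1 without it. How many of all genes were lowest in library 6 was not counted, so these counts cannot be read as particular to the 36 genes. The median ratio of library 6 to the mean of libraries 1 to 5 was 0.417 over the 36 genes, and the same ratio of the myotube marker sum was 0.462. The share of all counts that fell on the 36 genes was 2.20 to 2.48% in libraries 1 to 5, 1.20% in library 6 and 1.75 to 2.15% with STEM.

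The mean of the STEM libraries was below the mean of libraries 1 to 5 for 28 genes, and for 26 genes it lay between that mean and library 6. The same counts were not made over all genes. The myotube markers lay between in the same way, with a STEM mean of 0.856 of libraries 1 to 5. Of these 24 markers, 2 were called higher and 2 lower with 12 libraries, against 18.9% and 17.4% of all genes. Without library 6, 2 were called higher and 15 lower, against 26.3% and 24.5% of all genes. The part of myotube content in the differences of the glycolytic genes was not tested.

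**Figure D5:**
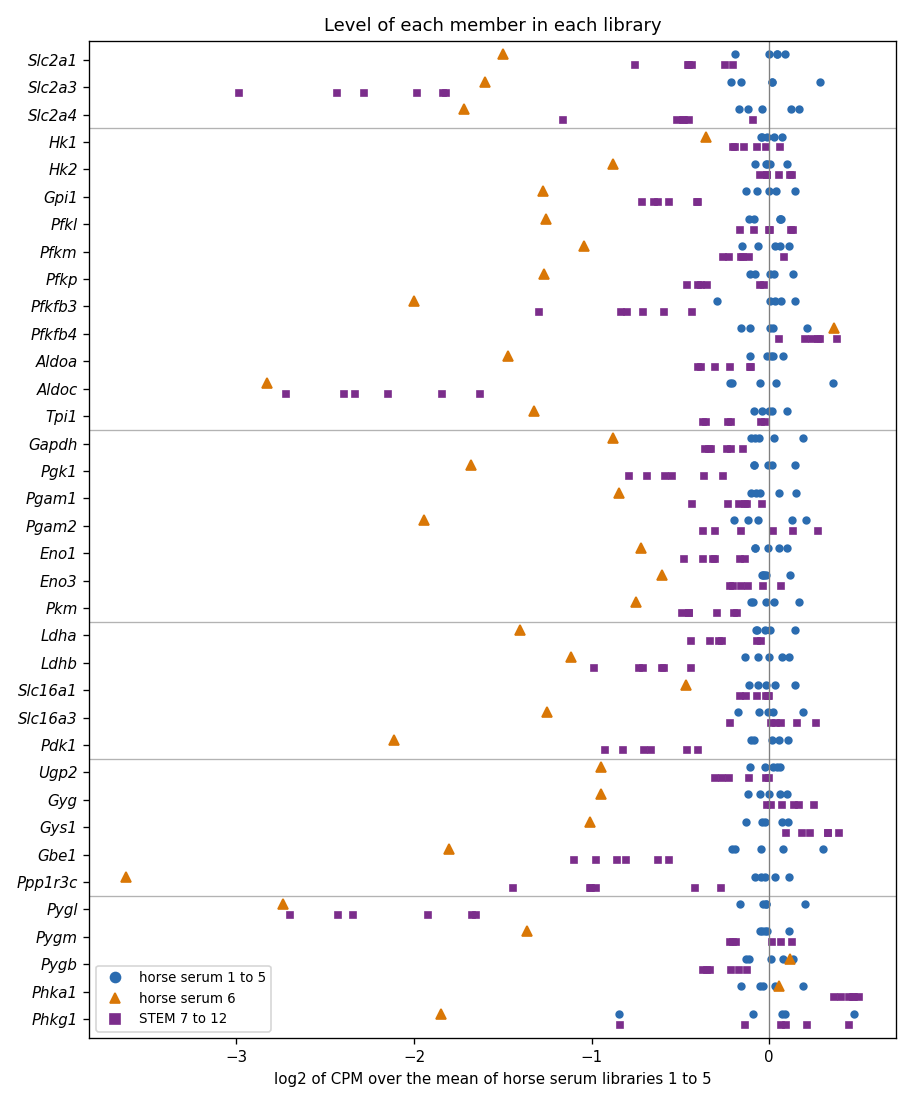
Level of each of the 36 genes in each library as log2 of its CPM over the mean of horse serum libraries 1 to 5 (circles), with horse serum library 6 as a triangle and STEM libraries as squares. Library 6 lies to the left of the other horse serum libraries for 33 genes, and the STEM libraries lie mostly between.

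Around these 36 genes, 118 other genes of glucose use were followed in 8 lists. With 12 libraries, 14 of the 91 tested genes were higher and 15 lower with STEM, and without library 6 it was 22 higher and 29 lower of 92. Of all genes tested, 18.9% were higher and 17.4% lower with 12 libraries, and 26.3% and 24.5% without library 6, so the lists are read against these shares. Of 7 other transport genes tested, 2 were higher and 2 lower. Slc2a13, a proton-coupled myo-inositol carrier, rose from 2.01 ± 0.19 to 6.00 ± 0.85 CPM (log2 fold change 1.57, adjusted p = 4.56e-07), and Slc2a8 fell from 13.2 ± 1.02 to 8.79 ± 0.90 CPM (-0.58, adjusted p = 0.000105). Neither overlapped between the groups. Of 13 genes for the entry of pyruvate into mitochondria, 1 was higher and 2 lower. Pdk4, a second kinase that switches off pyruvate dehydrogenase, fell from 21.7 ± 1.98 to 13.0 ± 1.66 CPM (-0.73, adjusted p = 2.49e-05) with no overlap, and Pdp1, the phosphatase that switches it on, had a log2 fold change of -0.72 (adjusted p = 0.0109).

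Of 20 other glycogen genes, 1 was higher and 3 lower. Gsk3b, a kinase that inhibits glycogen synthase, had a log2 fold change of 0.39 (adjusted p = 0.00222), Pgm2l1, which makes glucose-1,6-bisphosphate, -0.88 (adjusted p = 0.000503), and Phka2, the liver form of the subunit encoded by Phka1, -0.18 (adjusted p = 0.00686). Of 8 genes of the pentose phosphate pathway, Pgd had a log2 fold change of 0.24 (adjusted p = 0.0293) and Tkt, the transketolase that links the pathway to glycolysis, -0.79 (adjusted p = 2.79e-05). Of 4 gluconeogenesis genes tested, Pcx, which carboxylates pyruvate, was lower (-0.65, adjusted p = 2.52e-05). Of 10 genes of the NADH shuttles, Got1 and Mdh2 were higher and Gpd2, the mitochondrial glycerol-3-phosphate dehydrogenase, was lower (-0.57, adjusted p = 3.69e-06). Tkt, Pcx and Gpd2 did not overlap between the groups in either comparison.

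Of 7 other isoenzymes tested, Adpgk and Pfkfb1 were higher and none was lower with 12 libraries. Without library 6, 3 of 8 were higher and 1 was lower. The lower gene was Eno2, the enolase of neurons, named here after its values were seen, with log2 fold changes of -0.69 (adjusted p = 0.118) with 12 libraries and -0.89 (adjusted p = 0.000101) without library 6. Of 22 regulators, 5 were higher and 5 lower with 12 libraries (18.9% and 17.4% of all genes). Without library 6, 7 were higher and 6 lower (26.3% and 24.5% of all genes). Among those called with 12 libraries were Akt1, the insulin-signaling kinase (log2 fold change 0.25, adjusted p = 0.000531), and Irs2, an adaptor of the insulin receptor (-0.69, adjusted p = 0.000347). The median log2 fold change of the 8 lists ranged from -0.004 to 0.19 with 12 libraries and from -0.06 to 0.31 without library 6, against 0.01 for all genes in both.

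For some of the 36 genes reads may be shared with other genes. Gapdh had 87 near-identical genes, 85 of them pseudogenes, which held 19.8% as many counts as Gapdh itself, and Eno1 had 3, which held 28.4%, most of them on Eno1b. Pkm shares exons on its own strand with Gm49759, and the genes similar to it held 3.04% as many counts. Adding these counts changed no call, and the log2 fold changes without library 6 were then -0.26 for Gapdh, -0.29 for Eno1 and -0.35 for Pkm. Phkg1, Gys1, Gapdh, Pfkp, Pfkm, Tpi1 and 5 others overlap exons of a gene on the other strand. Sumf2, which overlaps Phkg1, had 3264 counts against 137 for Phkg1. Whether the counting used the strand is not given in the sources used here, and the level of Phkg1 is uncertain for that reason.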

How the data were processed

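Libraries were prepared by the authors as stranded total RNA depleted of ribosomal RNA and sequenced in paired reads. The authors deposited raw counts of reads per Ensembl gene for each of the 12 libraries, without normalization, on GRCm38. The submitters' processing notes name STAR 2.7.3a, featureCounts 1.6.3 and DESeq2 1.26.0. The strand setting and annotation release are not given in the sources used here. All 12 columns were used, and 0 columns of other samples were present. Libraries were grouped by their titles. Total counts ranged from 13285472 to 24536264.

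Identifiers were matched to GENCODE, which held 55227 of 55487 rows. Differential expression was tested with edgeR 4.0.16 in R 4.3.3 (TMM, filterByExpr, robust glmQLFit, glmQLFTest, group as the only factor) with Benjamini-Hochberg adjustment over all genes tested, and genes with an adjusted p-value no higher than 0.05 were called. CPM used TMM-normalized totals, and TPM the union of exons. Fits were checked on simulated counts. Near-identical copies were sought with blastn 2.17.0 (at least 95% identity over 200 bases), and adding them was chosen after seeing the data.

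The named genes are the 36 genes, at most 3 called genes with the lowest adjusted p per list, and marker lists. Not every gene that meets this rule is reported here. Promoters were shown for genes called in both fits and differing by 1 or more on the log2 scale. The genes and lists were chosen with earlier results of these data known. Alternatives were other scalings (size factors or total counts), no filter or at least 10 counts per library, DESeq2 1.42.0, limma-voom (limma 3.58.1), no robust estimation, thinning to the lowest total, an adjusted p of 0.01, transcript length, and omission of single libraries.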

Additional observations from a re-analysis of the deposited data

Results flagged for a closer look

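By Dixon's ratio (above 0.625 for 6 libraries), a library stood far from the rest of its group in 36 of 100 groups of values. Chance flags about 1 in 20 of independent groups. The groups tested share the same libraries and are not independent, so their count cannot be weighed against that rate. In 35 of the 36 cases the library was horse serum library 6.

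For 29 of the 36 genes, library 6 was far below the other horse serum libraries. The share of all genes with such a gap was not counted. In CPM, glucose entry gave Slc2a1 at 49.0 (121 to 147 in the others) and Slc2a4 at 2.87. In upper glycolysis Hk1 stood at 81.8, Hk2 at 77.0, Gpi1 at 361, Pfkl at 119, Pfkm at 281, Pfkp at 92.3, Pfkfb3 at 9.26, Aldoa at 1195, Aldoc at 7.83 (47.7 to 71.2 in the others) and Tpi1 at 769. In lower glycolysis Gapdh stood at 841, Pgk1 at 697, Pgam1 at 124, Pgam2 at 17.2, Eno1 at 1008, Eno3 at 871 and Pkm at 3106. Among the genes of pyruvate and lactate, Ldha stood at 636, Ldhb at 10.1, Slc16a3 at 64.1 and Pdk1 at 146 (590 to 681 in the others). Among the glycogen genes, Ugp2 stood at 89.0, Gyg at 69.3, Gys1 at 83.2, Ppp1r3c at 3.79 (44.1 to 50.3 in the others), Pygl at 1.38 and Pygm at 63.8. The ratio was largest for Ppp1r3c, at 0.867.

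Isoform shares of library 6 also stood apart. Its Hk1 share was 42.6%, its Pfkfb4 share 76.5% and its Pygb share 41.5%, all above the other horse serum libraries. Its Pgam2 share was 24.7%, its Slc16a3 share 25.9% and its Pygl share 0.586%, all below them. The exception was horse serum library 1, whose Slc2a3 share of 6.48% was above the 5.00 to 5.46% of the others.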

How the results depend on the processing

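No paired analysis was possible because the groups share no replicate number. Leaving out each library in turn gave 5 to 25 genes called (1 to 3 higher, 4 to 22 lower), and 25, 3 and 22 were the values without horse serum library 6. With total counts only, DESeq2, limma-voom or no robust estimation, 2 were higher, the second being Gys1. Slc2a3, Aldoc, Pygl, Pygb and Phka1 kept their call in every setting run. Without library 6, 50.8% of all genes tested were called. Among the lists, the called genes were then 5 of 10 for NADH shuttles, 2 of 4 for gluconeogenesis and 12 of 20 for other glycogen genes. They were 4 of 8 for other isoenzymes, 4 of 8 for the pentose phosphate pathway and 6 of 13 for pyruvate entry. Of 7 other transport genes tested, 2 were called higher and 3 lower, and of 22 regulators 7 were called higher and 6 lower. In that comparison Pfkm was called after thinning, and with total counts only Gyg was called and Pgam1 and Ugp2 were not. Genes near 0 changed sign without a call. Log2 fold changes were 0.028 (total counts) and 0.038 (limma-voom) for Pfkm, 0.010 (limma-voom) for Tpi1, 0.0039 (total counts) for Eno3, 0.0017 (total counts) and 0.0069 (limma-voom) for Ugp2, and -0.0037 (at least 10 counts) and -0.0041 (thinned) for Slc16a1. Leaving out libraries gave -0.13 to 0.050 for Pfkm, -0.20 to 0.0081 for Tpi1, -0.044 to 0.24 for Pgam2, -0.11 to 0.021 for Eno3, -0.062 to 0.054 for Slc16a1, -0.15 to 0.011 for Ugp2 and -0.058 to 0.16 for Pygm. Scaling by total counts moved the median of all genes by at most 0.05. Phkg1 was not tested at 10 counts or after thinning, and its log2 fold change was 0.24 (standard error 0.32), and 0.018 (standard error 0.27) without library 6.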
